A study of Mus musculus with 4 samples.

Results

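Csf2 and Il3 are neighbouring cytokine genes on mouse chromosome 11, and the H3K27ac peaks in and around them are described here as mapped in cultured Th17 cells, which are named for the IL-17 cytokines they release. A peak was included if it overlapped either gene or the 100 kb on each side, that is chr11:54147270-54367279 (GRCm38), and 27 of the 56285 peaks in the deposited list met this rule. Naive CD4+ T cells of strain C57BL/6 were cultured for 72 h with anti-CD3ε (0.25 μg/mL), anti-CD28 (1 μg/mL), TGF-β (0.1 ng/mL) and IL-6 (20 ng/mL), per the treatment labels; the growth protocol gives a range for TGF-β. The treatment labels name neither IL-23 nor IL-1β and give no genotype, while the peak names carry the text WT_Ddx5. There were 2 H3K27ac libraries and 2 input DNA libraries from 2 biological replicates, all in this 1 culture condition. The list names no sample, and whether it rests on both replicates or on 1 is not stated in the sources used here. It gives positions only, with no score and no value per library. No replicate error can therefore be given for the counts and lengths below, the depth is unknown, and no difference between genes could be tested.

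Acetylation of lysine 27 on histone H3 is a mark of active promoters and enhancers. Csf2 encodes GM-CSF, a growth factor for granulocytes and macrophages that activated T cells secrete and through which pathogenic Th17 cells act on myeloid cells. IL-23 and IL-1β are known to raise its output in these cells. Il3 encodes interleukin 3, a growth factor for basophils, mast cells and early blood cells that activated T cells also make. The human counterparts of both genes are known to be switched on by T cell receptor signals through NFAT, AP-1, RUNX and NF-κB factors at promoters and distant enhancers, with an insulator between the genes.

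Both genes are read from the minus strand, so the finish of Il3 faces the start of Csf2, and their annotated starts are 17380 bp apart. The bases around the starts are shown because a peak covered each of them whole at Csf2 and Il3 and none at Il5, the gene of a cytokine that signals through the same receptor β chain, on the same chromosome. Each window runs from 250 bases before the start to 50 after it (RefSeq, GRCm38.p6), 5′ to 3′ on the strand of the gene. Capitals mark the NFAT core GGAAA and the RUNX motif TGTGGT on either strand. The windows are chr11:54249850-54250149 for Csf2 (minus strand), chr11:54267230-54267529 for Il3 (minus strand) and chr11:53720544-53720843 for Il5 (plus strand).
Csf2: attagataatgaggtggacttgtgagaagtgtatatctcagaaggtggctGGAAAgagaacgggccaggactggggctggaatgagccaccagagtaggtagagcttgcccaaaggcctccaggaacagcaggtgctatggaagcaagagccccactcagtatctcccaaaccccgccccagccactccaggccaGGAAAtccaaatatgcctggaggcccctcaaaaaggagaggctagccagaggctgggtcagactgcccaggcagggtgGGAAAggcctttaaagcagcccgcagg
Il3: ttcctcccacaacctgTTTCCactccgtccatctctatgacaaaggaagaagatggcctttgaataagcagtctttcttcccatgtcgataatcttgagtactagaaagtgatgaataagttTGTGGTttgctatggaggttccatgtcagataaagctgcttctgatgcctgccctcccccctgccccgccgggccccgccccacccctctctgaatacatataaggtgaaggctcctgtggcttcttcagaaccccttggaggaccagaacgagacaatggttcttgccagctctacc
Il5: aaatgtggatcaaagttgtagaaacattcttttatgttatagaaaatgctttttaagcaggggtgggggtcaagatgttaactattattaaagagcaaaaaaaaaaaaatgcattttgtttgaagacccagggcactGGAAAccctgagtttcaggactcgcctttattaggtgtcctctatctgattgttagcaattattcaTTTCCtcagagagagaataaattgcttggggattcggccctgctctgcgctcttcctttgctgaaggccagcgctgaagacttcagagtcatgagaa

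In the Csf2 window the NFAT core began 200 and 55 bases upstream and 23 bases downstream of the start. Il3 held 1 NFAT core, on the reverse strand 234 bases upstream, and the RUNX motif 128 bases upstream. Il5, with no peak there, held 2 NFAT cores, 113 bases upstream and, on the reverse strand, 47 bases upstream. Among 21045 start windows of protein-coding genes the NFAT core was present in 60.2% and the RUNX motif in 14.7%. The ETS core GGAAG, which shares its first 4 letters with the NFAT core, occurred once in Csf2 and Il5 and 2 times in Il3 (72.2% of all windows), and an E-box (CANNTG) once in Csf2 (69.0%). No match to the TATA box TATAAA (12.7% of all windows), the AP-1 motif TGANTCA (7.04%), the NF-κB motif (9.34%), the CREB core TGACG (23.8%) or the STAT motif TTCNNNGAA (7.76%) lay in the Csf2, Il3 or Il5 window. Both members had fewer CpG pairs than the median of 13 over all windows (quartiles 4 and 25), with 3 at Csf2 and 6 at Il3. The Il5 window held 4, and the windows of the 3 listed starts of the neighbouring gene Acsl6 held 5, 36 and 1. RefSeq lists 2 transcripts of Csf2, 1 curated and 1 predicted, and the single start used here is the outermost. It may be that of the predicted transcript, and the motif positions, the CpG count, the coverage of the start window and every distance to the Csf2 start depend on it.

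**Figure D1:**
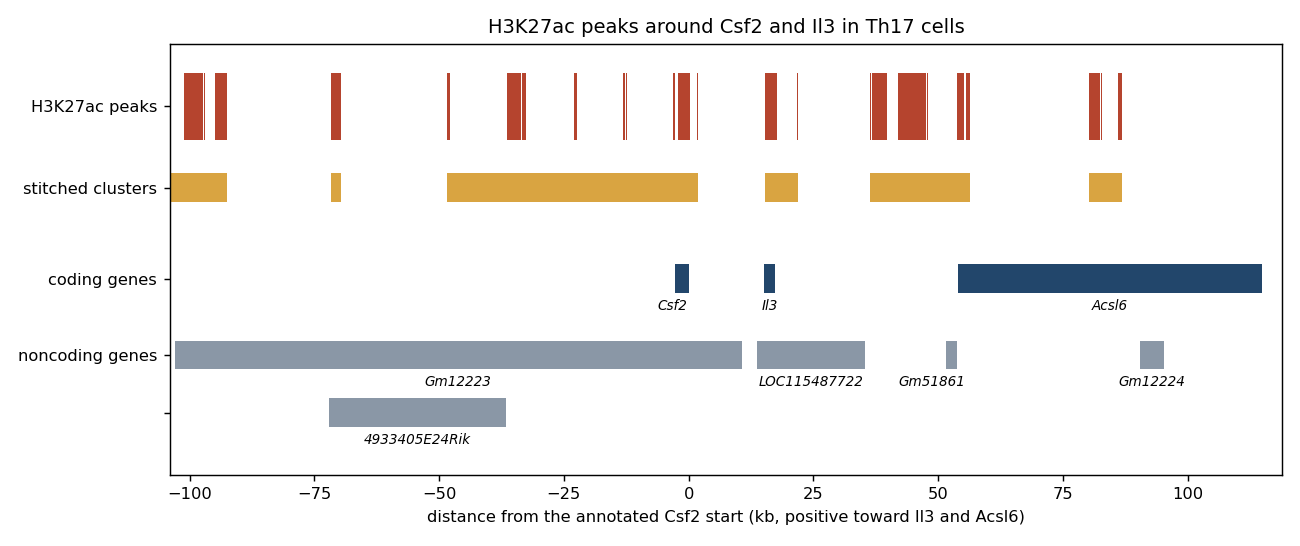
Map of the 27 H3K27ac peaks (red), peak clusters joined over gaps of 12.5 kb or less (yellow) and annotated genes (blue coding, grey noncoding, pseudogenes not drawn), along the distance from the Csf2 start in kb. Csf2 and Il3 each lie under 1 main peak, with a stretch of 13487 bp free of peaks between the Csf2 and the Il3 peaks and the widest peak to the right of Il3.

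The start of Csf2 lay in a peak of 2461 bp (chr11:54247811-54250271), which reached 372 bp upstream of the start and covered 2089 bp of the gene. That is 79.4% of the 2630 bp of Csf2 (chr11:54247270-54249899), and the 541 bp left uncovered were at its finish. A second peak of 425 bp (54246799 to 54247223) began just beyond the finish, and another of 189 bp (54251563 to 54251751) lay 1664 bp upstream of the start. Il3 (chr11:54265085-54267279, 2195 bp) was covered over 2041 bp, or 93.0%, by a single peak of 2326 bp (54265239 to 54267564) that reached 285 bp upstream of its start. Only 154 bp at the finish of Il3 were uncovered. The 2 main peaks were thus alike in width, in their short reach upstream of the start and in covering most of a short gene.

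A peak within 1000 bp of either gene end, called a gene-end peak, is common: 53.8% of 21631 protein-coding genes had one. Csf2 had 2 and Il3 had 1. The windows around the starts of Csf2 and Il3 were covered over all 300 bases, which held for 42.7% of the 17274 protein-coding genes with a listed start. Neither call sets the members apart from this background. Coverage of the gene body was higher than in most short genes: of 4850 protein-coding genes of at most 5000 bp, 6.06% were covered at least as far as Csf2 and 4.25% at least as far as Il3. By width, the Csf2 peak lay at percentile 88.6 and the Il3 peak at percentile 87.4 of all peaks.

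**Figure D2:**
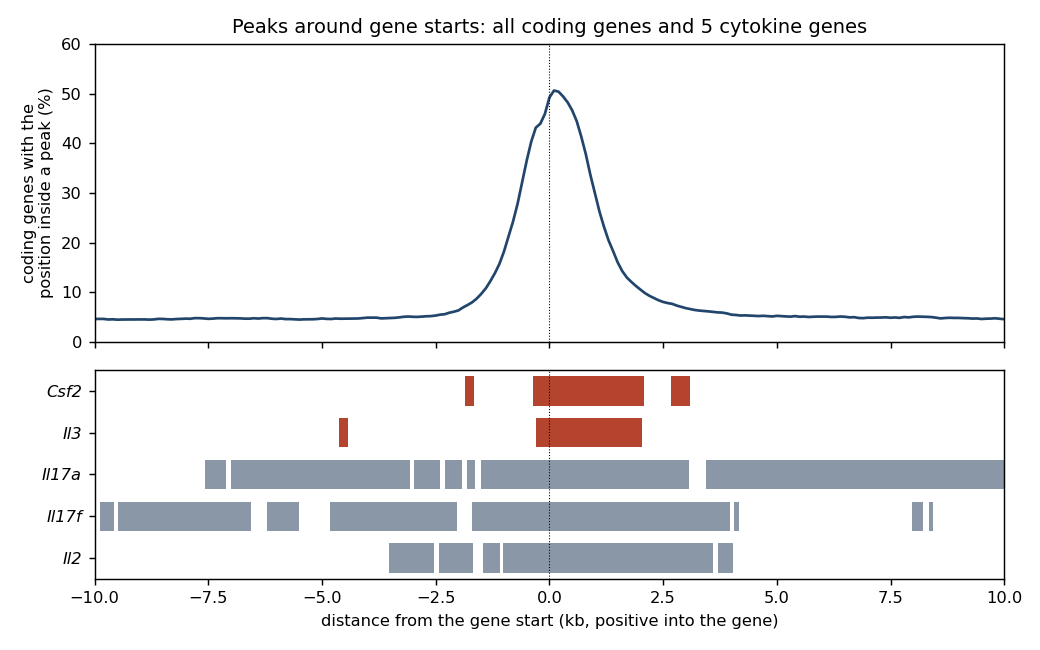
Top, share of 17274 protein-coding genes whose position at each distance from the start lies inside a peak. Bottom, the peaks of 5 cytokine genes over the same distances in kb, counted positive into the gene: Csf2 and Il3 (red) have 1 main peak over the start and gene, and Il17a and Il17f (grey) have further peaks over several kb upstream.

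Over all genes, 49.2% were inside a peak at the start itself and 4.76% at 5000 bp upstream. Csf2 and Il3 likewise had little inside peaks beyond the start and gene body in the nearest kilobases. Their main peaks reached 2088 bp (Csf2) and 2040 bp (Il3) into the gene, whereas 10.6% of all genes were inside a peak 2000 bp downstream. Within 10000 bp of the Il3 start there was 1 other peak, of 208 bp (54271708 to 54271915), 4429 bp upstream. It lay inside a noncoding transcript, LOC115487722, that spans Il3. The space between Csf2 and Il3 measured 15185 bp and 561 bp (3.69%) of it lay in peaks, 372 bp of this being the edge of the Csf2 peak. Among 3087 neighbouring pairs of protein-coding genes 10 to 20 kb apart, the median was 0% and the upper quartile 4.97%, and the Csf2 and Il3 pair stood at percentile 69.2.

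Other neighbouring cytokine genes differed widely in this respect. Il17a and Il17f, the signature Th17 cytokine genes, had 56.5% of the 42649 bp between them inside peaks. For Il2 and Il21, which encode T cell growth and helper cytokines, the share was 46.1% of 96804 bp. Il4 and Il13, both Th2 cytokine genes, were nearer to Csf2 and Il3, with 6.83% of 12657 bp. Tnf and Lta are much closer together, and all of the 1157 bp between them lay inside 1 peak. The longest stretch free of peaks between the genes was 13333 bp for Csf2 and Il3, 8152 bp for Il17a and Il17f, 4532 bp for Il4 and Il13 and 21364 bp for Il2 and Il21.

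Running numbers in the peak names are not continuous, and the cause was not tested. From the first to the last member they span 37 numbers, of which 10 are not in the list, so that 73.0% are held, against 78.8% in the list as a whole. No number was missing from the ninth to the twentieth member (12 peaks, 54226668 to 54289579). That run includes both genes and the space between them, so no number is missing across the stretch free of peaks there. The cause of that stretch was not tested.

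The widest peak of the locus lay upstream of Il3, inside no annotated gene. Together with 4 others it formed a group of 5 peaks (54286268 to 54297847) that began 18989 bp and ended 30568 bp upstream of the Il3 start, or 36369 to 47948 bp upstream of the Csf2 start. It covered 8837 bp, 26.3% of the acetylated length of the whole window. The widest member, of 5611 bp (54291920 to 54297530), was at percentile 97.9 of all peaks by width. The next in this group measured 2449 bp (54286739 to 54289187), and the other 3 measured 207 to 297 bp. Its right edge was 5958 bp from the near end of Acsl6, which encodes a long-chain acyl-CoA synthetase, so distance alone does not assign the group to a gene.

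Acsl6 (chr11:54303805-54364756) had 5 peaks that covered 8.73% of its 60952 bp. One of 1350 bp (54303767 to 54305116) spanned 2 of its 3 listed starts, and the remaining start was 8662 bp from any peak. Inside the gene a peak of 2160 bp (54330210 to 54332369) was the widest. No peak overlapped the noncoding gene Gm51861, whose start lay 66 bp from the peak at the start of Acsl6, or Gm12224, and the pseudogenes Gm18323, Gm12221 and Gm12222 of the window held none either. The next coding genes outside the window are Meikin, needed for meiotic chromosome segregation, which had a gene-end peak and 5675 bp inside peaks within 20 kb, and P4ha2, a collagen prolyl hydroxylase gene, which had one and 5530 bp.

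Beyond the finish of Csf2, 13 peaks covered 14286 bp of 100000 bp, against 12 peaks and 14687 bp in the 100000 bp beyond the start of Il3. The 12 peaks left of those at Csf2 all lay within Gm12223, a noncoding gene of 118670 bp annotated across Csf2 itself on the opposite strand, so position alone does not assign these peaks to Csf2 or to Gm12223. Neither listed start of Gm12223 lay in a peak, at distances of 210 and 4094 bp. A peak of 2770 bp (54213458 to 54216227) came within 170 bp of the start of the noncoding gene 4933405E24Rik and 33672 bp of the Csf2 start. A peak of 804 bp followed it, and then came 4 peaks of 123 to 606 bp, the nearest 12377 bp from the Csf2 start, before the 425 bp peak at the Csf2 finish. The widest on this side, of 3769 bp (54148816 to 54152584), was the farthest from Csf2. The nearest peaks outside the window were 1138 bp beyond its left edge (231 bp wide) and 4832 bp beyond its right edge (483 bp wide).

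In all, the 27 peaks covered 33664 bp, or 15.3% of the 220010 bp window, against 2.47% of the annotated span of the genome. Their median width was 706 bp (range 123 to 5611), against 579 bp for all peaks, and 12 were under 500 bp. The 8 peaks over 2000 bp held 71.0% of the covered length. By position, 4 peaks were at coding gene ends (6562 bp), 4 elsewhere within coding genes (4007 bp), 14 touched noncoding genes only (14258 bp) and 5 lay in no annotated gene (8837 bp). The 3 coding genes make up 29.9% of the window and held 28.1% of its acetylated length, a share close to that of their size. Acsl6 makes up 60952 of these 65777 coding bp and was 8.73% covered, against 79.4% of Csf2 and 93.0% of Il3. The matching window of Il17a and Il17f, which also holds 3 coding genes, had 41 peaks of median width 580 bp that covered 59234 bp, or 23.3%.

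Joined over gaps of 12.5 kb or less, the peaks fell into 6 clusters, the first of which begins with the peak just left of the window, and Csf2 and Il3 were in different ones. The cluster with the Csf2 start had 10 peaks over a span of 50317 bp and covered 8691 bp, at rank 1545 of 18748 clusters by covered length. That with the Il3 start had 2 peaks and covered 2534 bp, at rank 6518. The cluster upstream of Il3, from the group of 5 peaks to the start of Acsl6, covered 10925 bp, at rank 1109. By contrast, Il17a and Il17f were in 1 cluster of 36 peaks with 54617 bp, at rank 49. Stitching across 15000 bp, chosen after the data were seen, joined Csf2 and Il3 into a cluster of 104807 bp, since the gaps on both sides of the Il3 cluster, 13487 and 14352 bp, were between these limits.

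**Figure D3:**
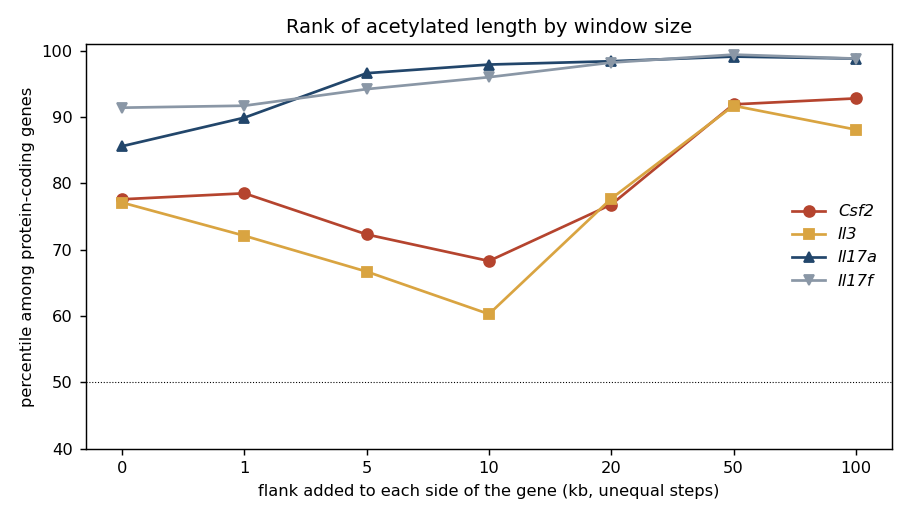
Percentile of 4 genes among 21631 protein-coding genes by length inside peaks (vertical axis from 40), for the gene alone and with flanks of 1 to 100 kb. Csf2 and Il3 fell to percentiles 68.3 and 60.3 with 10 kb flanks and were at 91.9 and 91.7 with 50 kb, while Il17a and Il17f were at 96.0 or above from 10 to 100 kb.

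The rank of Csf2 and Il3 among all genes depended on how far from the gene peaks were counted. In the gene alone, 2089 bp for Csf2 and 2041 bp for Il3 put them at percentiles 77.6 and 77.1. With flanks of 10000 bp they had 3328 and 2534 bp and fell to percentiles 68.3 and 60.3. With 50000 bp the lengths were 20062 and 19817 bp, at percentiles 91.9 and 91.7. At 100000 bp Csf2 had 33664 bp (percentile 92.8) and Il3 27373 bp (percentile 88.1), against a median of 8388 bp over all genes. The wide windows of the 2 genes largely overlap, so these values are not independent of each other. Il17a had 18645 bp and Il17f 13391 bp with flanks of 10000 bp, at percentiles 97.9 and 96.0. Il17a and Il17f thus ranked high at 10000 bp already, whereas Csf2 and Il3 ranked lower there than for the gene alone and higher at 50000 and 100000 bp. With flanks of 200000 bp the percentiles were 84.9 for Csf2, 88.1 for Il3 and 94.7 for Il17a, with Il17f just above Il17a.

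**Figure D4:**
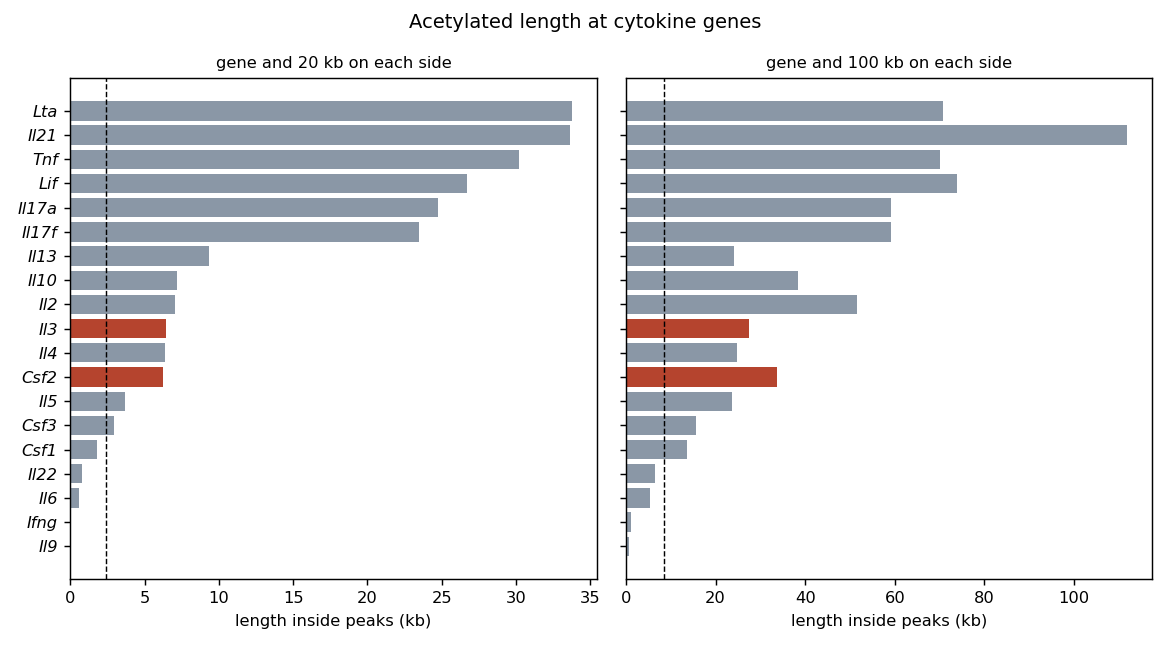
Length inside peaks (kb) at 19 cytokine genes with 20 kb and with 100 kb on each side, ordered by the 20 kb values, with Csf2 and Il3 in red and the median over all protein-coding genes dashed. Csf2 and Il3 lie in the middle of the order in both panels, well above Ifng, Il9 and Il22.

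Among 19 cytokine genes ordered by acetylated length with 20 kb flanks, Il3 was at rank 10 with 6423 bp and Csf2 at rank 12 with 6225 bp, on either side of Il4 with 6356 bp. These 3 values are close, and without values per library the error of their order is unknown. Neighbouring genes, such as Tnf and Lta or Csf2 and Il3, share peaks in these windows, so the ranks are not independent. Ahead of them came Lta (33755 bp), Il21 (33621 bp), Tnf (30184 bp), Lif (26698 bp), Il17a (24761 bp), Il17f (23444 bp), Il13 (9325 bp), Il10 (7193 bp) and Il2 (7074 bp). Behind them were Il5 (3677 bp), Csf3 (2928 bp), Csf1 (1798 bp), Il22 (767 bp) and Il6 (551 bp), while Ifng and Il9 had 0 bp. With 100 kb flanks Csf2 was at rank 9 and Il3 at rank 10. The other colony-stimulating factor genes were lower there too, Csf1 with 13729 bp and Csf3, which encodes G-CSF, with 15650 bp. Il4 was like the members in length but not in place: 6.64% of the gene was covered, and 0 bases of its start windows lay in a peak. At Il2 the start window was covered whole, as at Csf2 and Il3, and 3933 bp of the 5242 bp of the gene were covered.

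The receptors through which GM-CSF, IL-3 and IL-5 act were marked unevenly, from a wide peak over the start of Il3ra to no peak in Il5ra. Each pairs a ligand-specific chain with a shared β chain, and the mouse has a second β chain that serves IL-3. A gene-end peak was found at 2 of the 5 receptor genes, Csf2ra and Il3ra, against 53.8% of all genes, and the median acetylated length with 20 kb flanks was 2928 bp against 2399 bp, both near the level of all genes. Of the 3 ligand genes, Csf2 and Il3 had one and Il5, with 3677 bp, did not. Il3ra, the IL-3 receptor α chain gene, had 1 peak of 2928 bp (chr14:14345210-14348137) over its start. Csf2ra, for the GM-CSF receptor α chain, had one of 2415 bp (chr19:61225895-61228309) whose edge was 109 bp inside the listed start. Csf2rb, the shared β chain gene, had 7 peaks of 100 to 530 bp in a row inside the gene, the first 3243 bp from its nearer end. Csf2rb2, the β chain gene for IL-3, had 3 peaks inside the gene, the widest of 1946 bp and the nearest 2229 bp from its start. Il5ra had no peak nearer than 19637 bp, and its ligand gene Il5 none nearer than 9699 bp.

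**Figure D5:**
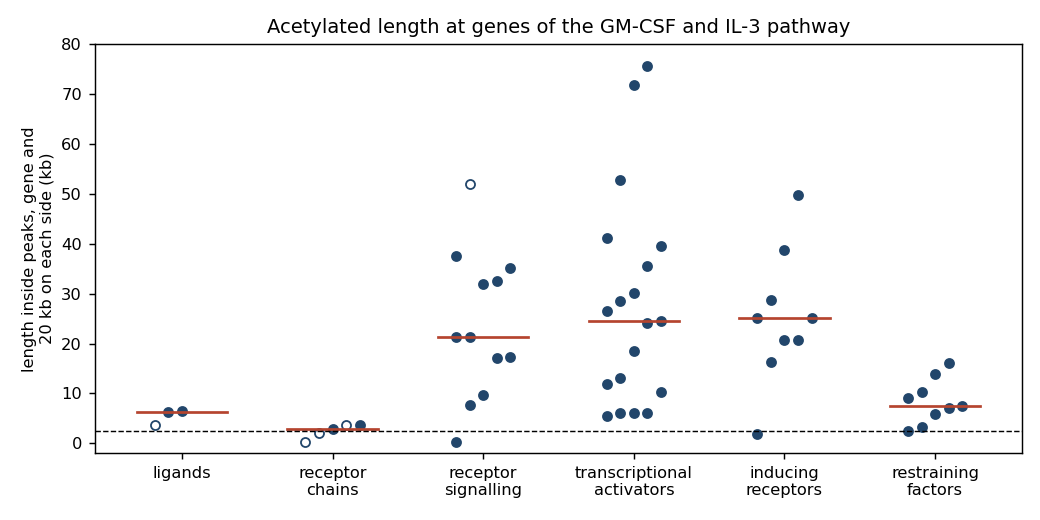
Length inside peaks (kb) with 20 kb on each side, 1 point per gene, for ligands, receptors and further genes of the GM-CSF and IL-3 pathway, filled where the gene has a gene-end peak; red lines are list medians and the dashed line the median over all protein-coding genes. Ligands and receptor chains lie below 7 kb, and most genes of receptor signalling and transcription lie above.

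Genes that signal from these receptors or act on Csf2 and Il3 were mostly marked at their ends, against 53.8% of all genes. The lengths include the gene itself, and genes differ in size: Ets1 spans 121580 bp and Nfatc2 125248 bp, against 2630 bp for Csf2. Of the 12 receptor signalling genes, 11 were marked within 1000 bp of an end, with a median of 21365.5 bp, led by Bcl2l1 (51995 bp), a survival gene and the 1 with no peak at its outermost ends, Cish (37479 bp), a STAT5-induced inhibitor, and Stat5b (35065 bp), the transducer of GM-CSF and IL-3 signals. Of these 12 genes, 11 had a longer acetylated length than Csf2, which itself stood at percentile 76.8 of all genes. The exception, Lyn, had only 220 bp and counts as marked through gene-end peaks of at most 120 bp. All 19 transcriptional activators had a gene-end peak, with a median of 24510 bp, led by Ets1 (75654 bp), Nfkb1 (71726 bp) and the NFAT gene Nfatc2 (52715 bp), and 15 of the 19 had more than Csf2. Among receptors for signals that raise GM-CSF, 9 of 9 had one, with a median of 25037 bp, led by Il2ra (49704 bp), Cd28 (38735 bp) and Il2rb (28681 bp). Of these 9 genes, 8 were above the median of 2399 bp over all genes, and Il1rap (1818 bp) was below it. Genes listed as lowering GM-CSF, some of them receptor chains for other cytokines, had one at 9 of 9 and a median of 7431 bp. The longest were at 3 genes of mRNA-destabilising proteins, Zfp36 (16111 bp), Zfp36l1 (13983 bp) and Zfp36l2 (10396 bp). Several genes, such as Il10 and Il23r, stand in more than 1 of the lists used here. These counts are descriptions of the lists and were not tested.

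Markers of the labelled cell type were acetylated. All 6 T cell and Th17 genes checked (Cd3e, Cd4, Il17a, Il17f, Ccr6 and Il23r) had a gene-end peak, against 53.8% of all genes. Of 13 genes of myeloid, mast cell, basophil, B and innate lymphoid cells, 2 had one, the mast cell gene Ms4a2 and the B cell gene Cd79a. Of the 9 among the 13 with a listed start, 0 had any peak in the start window, whereas 42.7% of all genes had that window wholly covered. The part of other cells in the peaks at Csf2 and Il3 was not tested.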

How the data were processed

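The submitters' processing notes name the build GRCm38 (mm10) and, with no role given, deepTools, MACS2 2.2.6, SAMtools 1.9 and Bowtie2 2.3.4.1. Per the design text of the series, calling with MACS used the input DNA of each replicate. For the call threshold, filters and pooling of replicates, the setting is not given in the sources used here. What the authors deposited is a list with a chromosome, start, end and name per peak, in other words positions in bp with no score. Starts were read as counted from 0, since 787 peaks then share the smallest width of exactly 100 bp, and are printed counted from 1.

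Peaks were counted with an overlap of at least 1 bp, lengths were clipped to the window, and percentiles count ties as 0.5. Genes came from RefSeq GRCm38.p6 (21631 protein-coding, on autosomes 1 to 19 or X; all listed genes matched by symbol), with strand and start only where its promoter table has the gene. The members and lists were chosen with earlier results of these data known. Named are Csf2, Il3, the genes of the window and the next coding gene on each side, all ligand, receptor and cytokine genes listed, and up to 3 genes per further list with the longest acetylated length or without a gene-end peak. Of the listed genes, 1 is not reported here and enters no count over its lists. Marker genes, Lyn and Il1rap were named after their values were seen. No test was made. The interval code was checked on simulated peaks. Python 3.11.15, numpy 2.4.6, pandas 2.3.3 and matplotlib 3.10.9 were used.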

Additional observations from a re-analysis of the deposited data

How the results depend on the processing

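Of 32 values under alternative settings, 15 stayed within the limits set (counts and lengths within 1.5 times the main value, percentiles within its exact 95% binomial interval) and 17 moved. That interval counts genes as independent draws, so it is narrow and does not measure the uncertainty of a rank. Every alternative percentile fell outside it, small changes included. The 27 peaks became 15 when those under 500 bp were left out and 16 when those at most 1000 bp apart were merged. The acetylated length of the window fell from 33664 to 22150 bp with 50 kb flanks, which shorten the window itself. The percentile of Csf2, 92.8, was 76.8 with flanks of 20 kb, 91.9 with 50 kb, 92.3 with peaks of at least 500 bp, 94.4 by number of peaks and 87.3 among genes of chromosome 11. For Il3, 88.1 became 77.7, 91.7, 87.4, 91.4 and 78.4 in the same order. With peaks of at least 500 bp Csf2 had 1 gene-end peak in place of 2 and its cluster spanned 2461 bp in place of 50317 bp. That span was 4953 bp with stitching across 5000 bp and 104807 bp with 15000 bp, tried only after seeing the data. The lower limit of width matters because 45.6% of all peaks are under 500 bp. The causes of these moves beyond the settings themselves were not tested. No replicate could be left out and no paired analysis was possible because the list holds no value per library, and depth sets a limit that cannot be stated.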
